A study of Mus musculus with 20 samples.

Results

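Long noncoding RNA (lncRNA) genes are transcribed like protein-coding genes but yield no protein. Some of their transcripts act in the nucleus, as Xist does in silencing an X chromosome, some silence imprinted neighbours in cis, and others serve mainly as precursors of microRNAs or small nucleolar RNAs (snoRNAs). Acetylation of histone H3 at lysine 27 (H3K27ac) marks active promoters and enhancers, so a region of H3K27ac at a lncRNA start marks a candidate active lncRNA promoter, although an enhancer lying on the same bases would look alike. The regions described here are the acetylated lncRNA promoters of the developing mouse face. They were found by merging the H3K27ac peaks of 10 libraries, which gave 42346 regions, and keeping each region within 1 kb of an annotated transcript start of a lincRNA, antisense or processed transcript gene and more than 5 kb from every start of a protein-coding gene. This left 1066 lncRNA promoter regions of 1037 lncRNA genes.

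The libraries came from freshly dissected wild-type mouse embryonic face tissue of mixed cell types, 1 H3K27ac library for each tissue and stage. At e11.5, with e for embryonic day, there were 4 tissues, a medial and a lateral nasal plate and 2 jaw processes (mandibular and maxillary), and at e13.5 and e15.5 there were 3, the nose and the same jaw processes. Wild-type FVB/NJ crosses are named as the source of mouse face tissue for other assays of the study. For these libraries neither strain nor pooling of embryos is given in the sources used here. A stage thus has 3 or 4 libraries that differ in tissue and no repeat of any tissue, and every p-value below measures the spread between such libraries. The lists held 6571 to 25941 peaks, and since the read depth behind them is unknown, a region without a peak may still carry H3K27ac below the calling threshold.

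At e15.5 the region carried in the peak names differed from the label in all 3 libraries. The library labelled mandibular carries peak names of the nose, that labelled maxillary names abbreviated md and that labelled nose names abbreviated mx. They are called by their labels here and were kept out of the comparison of nose and jaw. The promoter of Hand2, a mandibular transcription factor gene, had a peak in the mandibular libraries of e11.5 and e13.5 and, at e15.5, only in the library labelled maxillary. Pax7, a gene of nasal mesenchyme, had one in the 3 nasal libraries of e11.5 and e13.5 and, at e15.5, only in the library labelled mandibular. At e15.5 Hand2 and Pax7 thus went with the peak names and not with the labels. Dlx5 and Alx1, also chosen as markers of jaw against nose, had peaks in both nasal and jaw libraries of e11.5 and e13.5. At e15.5 Dlx5 was called in the libraries labelled mandibular and maxillary and Alx1 in all 3. Neither decides between label and peak name. The e15.5 library labelled nose also stood apart in that 23.7% of its peaks were under 500 bp, against 2.12% to 14.6% in the others. The mesenchymal promoters Prrx1, Twist1, Msx1 and Alx4 had peaks in all 10 libraries. Of the epithelial promoters, Epcam had one in 6, Trp63 in 2 and Krt8 in 0. The endothelial promoters of Cdh5 and Kdr and those of Alb, Myh6, Ins2 and Hbb-bs were called in 0 libraries.

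Of the 1066 regions, 746 (70.0%) held a lncRNA start and 320 lay beside one. Starts of 1 gene accounted for 1009 regions, of 2 genes for 56 and of 3 genes for 1. LincRNA genes alone gave 730 regions, antisense genes 193, processed transcript genes 121 and mixtures of types 22. Among genes with at least 1 start more than 5 kb from coding starts, a region was found for 728 of 5174 lincRNA genes (14.1%), 190 of 1416 antisense genes (13.4%) and 112 of 429 processed transcript genes (26.1%). Antisense regions lay within the body of a protein-coding gene in 137 of 193 cases, against 27 of 730 lincRNA regions. The types are given by the annotation, so this contrast describes the annotated genes and is no result of the peaks. The nearest protein-coding start was a median of 43076 bp away, against 35633 bp for the 24516 remaining regions that are also more than 5 kb from coding starts but not within 1 kb of a lncRNA start, called other remote regions here. Within the body of a protein-coding gene lay 17.7% of the 1066 regions and 46.9% of the other remote regions.

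The 2 regions farthest from a lncRNA start that were still kept, at 1700019J19Rik (1000 bp away, 4 libraries, 1328 bp) and C230057M02Rik (991 bp, 1 library, 559 bp), stand beside the 2 nearest that were not, at Gm13647 (1001 bp, 1 library, 695 bp) and Gm14635 (1004 bp, 1 library, 1002 bp). At the coding limit, AC133523.2 (5022 bp from a coding start, 1 library) and Gm39158 (5035 bp, 2 libraries) were kept. C920006O11Rik (4938 bp, 10 libraries, widest peak 2680 bp) and AC132404.1 (4822 bp, 1 library) were not.

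The sequences that carry the main observations are shown first. Each promoter window runs from 250 bases before to 50 after an annotated start, on the strand of the gene, in GRCm38, with CpG dinucleotides in capitals. The first pair are alternative promoters of Mir99ahg, the host gene of miR-99a, let-7c and miR-125b-2. The promoter at chr16:77328930-77329229 (+ strand) had a peak in 10 libraries and that at chr16:77236067-77236366 (+) in 5, none of them of e11.5. Next is the promoter of the paralogous host 3110039I08Rik at chr9:41579244-41579543 (+; 10 libraries), followed by the promoter of H19, an imprinted maternally expressed lncRNA, at chr7:142578094-142578393 (−; 10 libraries). The last 3 are promoters called in some libraries only. They are 4631405K08Rik, host of miR-205, at chr1:193510125-193510424 (−, 7 libraries), C130071C03Rik, host of miR-9-2, at chr13:83732316-83732615 (+, 3 libraries), and 5033428I22Rik, the nearest lncRNA to Hand2 among these regions, at chr8:57340550-57340849 (+, 2 libraries).
Mir99ahg, promoter in 10 libraries: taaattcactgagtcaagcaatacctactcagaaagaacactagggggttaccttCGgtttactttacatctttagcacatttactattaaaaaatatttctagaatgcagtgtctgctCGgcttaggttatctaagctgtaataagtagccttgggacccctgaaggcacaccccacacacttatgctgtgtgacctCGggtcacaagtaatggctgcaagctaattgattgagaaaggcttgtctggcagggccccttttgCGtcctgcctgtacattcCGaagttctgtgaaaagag
Mir99ahg, promoter in 5 libraries: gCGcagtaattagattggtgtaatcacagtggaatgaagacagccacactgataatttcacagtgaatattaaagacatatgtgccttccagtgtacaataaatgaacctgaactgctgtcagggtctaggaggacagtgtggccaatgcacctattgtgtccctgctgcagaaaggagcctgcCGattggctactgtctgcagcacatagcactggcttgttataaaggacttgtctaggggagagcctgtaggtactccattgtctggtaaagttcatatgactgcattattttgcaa
3110039I08Rik: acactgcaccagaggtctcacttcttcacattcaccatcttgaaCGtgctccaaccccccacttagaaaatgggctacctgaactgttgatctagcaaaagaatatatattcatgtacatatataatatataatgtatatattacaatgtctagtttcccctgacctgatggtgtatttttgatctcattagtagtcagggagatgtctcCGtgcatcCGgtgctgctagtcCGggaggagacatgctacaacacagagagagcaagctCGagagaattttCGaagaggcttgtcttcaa
H19: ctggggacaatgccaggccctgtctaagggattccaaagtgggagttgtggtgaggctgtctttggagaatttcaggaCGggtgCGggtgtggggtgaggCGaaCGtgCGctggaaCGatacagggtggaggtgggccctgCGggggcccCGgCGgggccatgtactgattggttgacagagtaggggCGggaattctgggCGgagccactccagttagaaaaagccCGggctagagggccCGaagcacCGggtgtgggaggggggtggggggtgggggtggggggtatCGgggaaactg
4631405K08Rik: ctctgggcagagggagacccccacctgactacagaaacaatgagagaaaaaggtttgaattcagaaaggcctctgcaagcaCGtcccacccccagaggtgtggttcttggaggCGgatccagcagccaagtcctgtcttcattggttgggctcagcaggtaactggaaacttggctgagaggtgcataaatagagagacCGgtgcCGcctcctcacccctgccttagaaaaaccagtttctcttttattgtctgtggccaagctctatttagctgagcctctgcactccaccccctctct
C130071C03Rik: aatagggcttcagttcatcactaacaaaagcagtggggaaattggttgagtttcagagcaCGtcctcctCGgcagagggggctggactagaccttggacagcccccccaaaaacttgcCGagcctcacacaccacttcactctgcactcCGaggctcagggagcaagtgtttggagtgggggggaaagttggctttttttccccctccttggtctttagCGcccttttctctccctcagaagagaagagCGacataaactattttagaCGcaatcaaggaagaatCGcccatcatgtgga
5033428I22Rik: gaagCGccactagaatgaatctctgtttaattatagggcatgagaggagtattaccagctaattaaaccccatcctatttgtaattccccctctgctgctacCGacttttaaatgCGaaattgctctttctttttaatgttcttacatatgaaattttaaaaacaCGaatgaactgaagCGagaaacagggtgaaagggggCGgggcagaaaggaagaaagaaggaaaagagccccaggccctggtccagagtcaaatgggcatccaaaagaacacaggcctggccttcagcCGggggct

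These windows held 5, 2, 6, 15, 4, 8 and 7 CpGs in the order shown, and observed over expected CpG ratios of 0.34, 0.14, 0.45, 0.60, 0.19, 0.40 and 0.46. H19 alone among them was GC-rich, at 64.3% G or C, while the others lay between 42.3% and 53.0%.

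The mature microRNAs of these host genes are shown 5′ to 3′ as RefSeq gives them for GRCm38.p6, with the seed (bases 2 to 8) in capitals. They are grouped by shared seed, because Mir99ahg on chromosome 16 and 3110039I08Rik on chromosome 9 host microRNAs of the same families. The let-7a sequence is the entry of let-7a-1, hosted by 6720427I07Rik on chromosome 13, and let-7a-2, hosted by 3110039I08Rik, is known to yield the same mature form.
mmu-let-7c-5p (Mir99ahg): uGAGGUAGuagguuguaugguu
mmu-let-7a-5p (6720427I07Rik): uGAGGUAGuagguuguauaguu
mmu-miR-99a-5p (Mir99ahg): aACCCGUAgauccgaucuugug
mmu-miR-100-5p (3110039I08Rik): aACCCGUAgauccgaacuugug
mmu-miR-125b-5p (both): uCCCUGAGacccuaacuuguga
mmu-miR-199a-3p (Dnm3os): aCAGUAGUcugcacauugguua
mmu-miR-214-3p (Dnm3os): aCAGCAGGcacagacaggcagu
mmu-miR-205-5p (4631405K08Rik): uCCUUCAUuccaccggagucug
mmu-miR-9-5p (C130071C03Rik): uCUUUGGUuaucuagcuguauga

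Individual lncRNA promoters were called in anything from 1 library to all 10. Peaks were found in a single library for 358 regions (33.6%) and in all 10 for 87 (8.16%), against 2831 of all 42346 merged regions (6.69%). The other remote regions were called in 1 library in 58.5% of cases and in all 10 in 0.967% (237 regions). Of the 12990 regions within 1 kb of a protein-coding start (coding promoter regions), 15.4% were in 1 library and 18.9% in all 10. The median number of libraries was 3 for the lncRNA promoters, 1 for the other remote regions and 6 for the coding promoters. Without the 3 e15.5 libraries, 107 of 931 lncRNA promoters were present in all 7, against 9.54% of all regions.

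**Figure D1:**
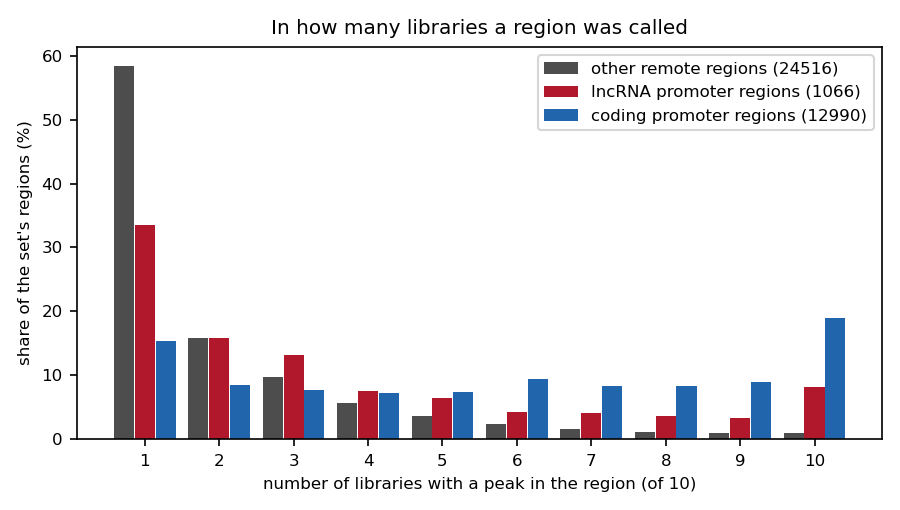
Share of regions (y axis, %) called in each number of libraries (x axis, 1 to 10) for 3 sets of merged regions, as bars. The lncRNA promoter regions (red) lie between the other remote regions (grey) and the coding promoter regions (blue) at both ends, with 33.6% in 1 library and 8.16% in 10.

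In each library, the lncRNA promoters were present more often than the other remote regions. At e11.5, 24.1% of them had a peak in the mandibular process, 15.9% in the maxillary process, 50.7% in the medial nasal plate and 53.4% in the lateral nasal plate. At e13.5 the values were 18.4% in the mandibular process, 23.5% in the maxillary process and 65.2% in the nose, and at e15.5 48.7%, 44.7% and 16.98% in those labelled mandibular, maxillary and nose. These shares broadly followed the number of peaks in the list, with the 3 nasal libraries of e11.5 and e13.5 all above the 4 jaw libraries. The order was not strict among the short lists. For example, the e13.5 maxillary process had more peaks than the e11.5 mandibular process (10753 against 8402) but a slightly lower share. The presence of lncRNA promoters exceeded that of the other remote regions by 15.1 percentage points ± 4.66 (SD, n = 10 libraries) and was higher in 10 of 10 libraries (exact two-sided sign-flip permutation test, p = 0.00195, the smallest that 10 libraries allow, adjusted over 8 tests 0.00391). A wide merged region has a better chance of reaching a start. When only the midpoint of the region had to lie within 1 kb of a start, 792 regions remained and the excess was 13.9 points.

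Peaks at lncRNA promoters were wider than at other remote regions. The median width (of the widest peak of a library in each region) was 1626 to 2137.5 bp at lncRNA promoters in the 10 libraries, 392 to 1751.5 bp at other remote regions and 1475 to 1971 bp at coding promoters. The lncRNA medians were a mean of 1.47 times the remote ones, a log2 ratio of 0.55 ± 0.66 (SD, n = 10), and were larger in 10 of 10 libraries (exact sign-flip permutation test, p = 0.00195, adjusted 0.00391). The e15.5 library labelled nose, with its median of 392 bp at remote regions, gave a ratio of 5.18, whereas the other 9 gave 1.10 to 1.61, and without that library the mean log2 ratio was 0.35. It was 0.28 with peaks of −log10 q of at least 2, and 0.39 at equal list sizes, where the lncRNA median was larger in 8 of 10 libraries. The 5 kb limit removes wide regions that reach toward a coding start, from the lncRNA promoters as well as from the other remote regions. The 1 kb rule does not act alike on both, since a wide merged region has a better chance of reaching a lncRNA start. Width thus enters the choice of lncRNA promoters, and the test is not independent of that choice. Over 9 other settings, the midpoint rule among them, the mean log2 ratio was 0.28 to 0.60.

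Compared with coding promoters, the direction of the width difference depended on how a region was assigned to a lncRNA start. By the rule used here the lncRNA medians were 1.07 times the coding ones, a log2 ratio of 0.09 ± 0.07 (SD, n = 10; larger in 9 of 10 libraries, the exception being the e13.5 nose; exact sign-flip permutation test, p = 0.00391, adjusted 0.00625). With the midpoint rule the log2 ratio turned to −0.05 (exact permutation p = 0.0156, adjusted 0.025). That rule was applied to lncRNA starts only, and coding promoters were still assigned by the whole region, so the 2 sets were not treated alike. With −log10 q of at least 2 and at equal list sizes the ratio was larger, at 0.21 and 0.23. With a window of 2.5 kb, used for lncRNA and coding starts alike, it was 0.05 (exact permutation p = 0.0918, adjusted 0.147).

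**Figure D2:**
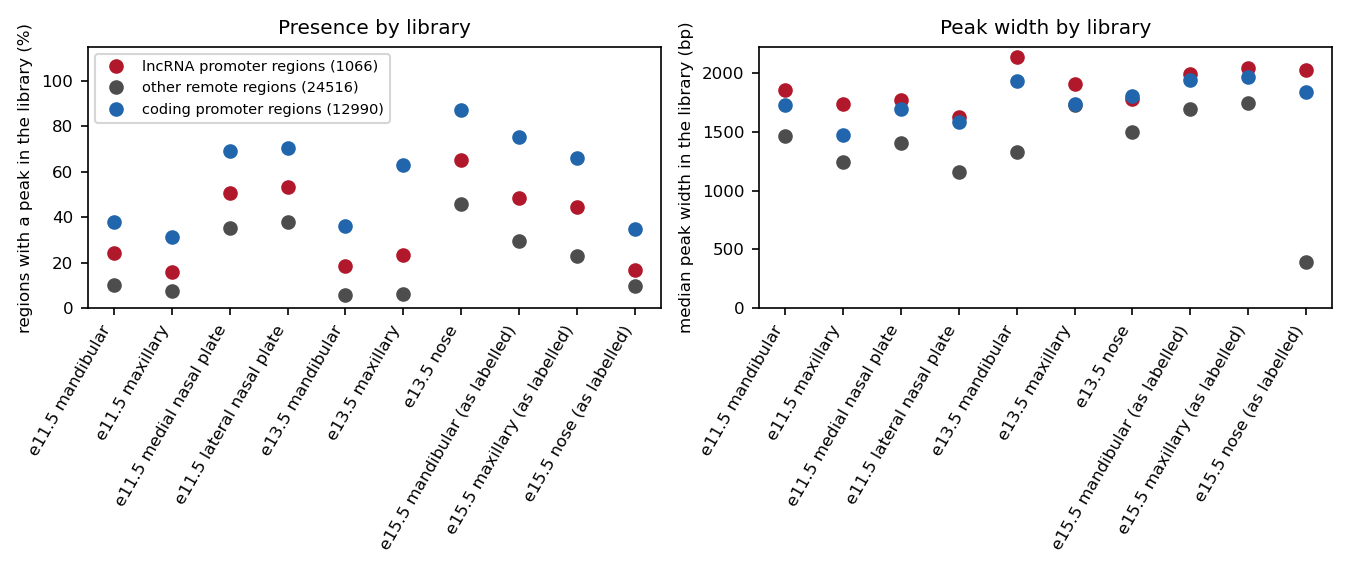
Left, share of regions with a peak (y axis, %) in each of the 10 libraries (x axis) for lncRNA promoter regions (red), other remote regions (grey) and coding promoter regions (blue). Right, median peak width (bp) of the same sets in the same libraries. In the left plot red points lie above grey and below blue in each library, and in the right plot the remote regions of the e15.5 library labelled nose stand apart at 392 bp.

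Enrichment was compared as a rank, since fold values of different libraries are not on one scale. Each peak was given the percentile of its fold enrichment among all peaks of its library (0, lowest, to 100, highest). A region with several peaks in a library took the highest of their percentiles. The median percentile of lncRNA promoters was 45.4 to 57.3 in the 10 libraries, that of other remote regions 24.8 to 36.9, and that of coding promoters 57.2 to 72.9. The lncRNA promoters ranked 19.1 points ± 1.42 (SD, n = 10) above the other remote regions, in 10 of 10 libraries (exact sign-flip permutation test, p = 0.00195, adjusted 0.00391). A wide merged region has a better chance of reaching a start and of holding several peaks. The rank test is thus, like that of width, not independent of the choice of lncRNA promoters. Over 9 other settings, the midpoint rule among them, the difference was 15.2 to 23.1 points.

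Peaks at lncRNA starts reached farther along the direction of transcription than against it. Measured from the most upstream start of the gene in each region, the reach downstream exceeded that upstream by a median of 140.5 to 348 bp in the 10 libraries, a mean of 262.5 bp ± 65.0 (SD, n = 10, exact sign-flip permutation test, p = 0.00195, adjusted 0.00391). Taking the most upstream of several starts lengthens the downstream side by construction. In genes with 1 start in the window the excess was 143 bp (exact permutation p = 0.00195, adjusted 0.00391).

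The regions present in more libraries were wider and ranked higher. The median width was 820 bp for the 358 regions in 1 library, 1503.5 bp for the 390 regions in 2 to 4, 1892 bp for the 231 regions in 5 to 9 and 2874.5 bp for the 87 regions in all 10, and the median percentiles were 21.0, 34.9, 56.0 and 88.1. Spearman's rho with the number of libraries was 0.545 for width and 0.685 for percentile over the 1066 regions, which share the same libraries and their depth, and all these measures come from the same peaks.

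CpG content, which does not come from the peaks, was also higher at the promoters called in more libraries. In the window from 250 bases before to 50 after the start, the median observed over expected CpG ratio was 0.27 for promoters in 1 library, 0.28 for those in 2 to 4, 0.35 for those in 5 to 9 and 0.50 for those in all 10. A ratio of at least 0.6 was found in 26 of 358, 32 of 390, 53 of 231 and 38 of 87 of them, or 7.26%, 8.21%, 22.9% and 43.7%. Spearman's rho between ratio and number of libraries was 0.21 (n = 1066). The peaks do enter the choice of window, since it is the start near the region, and a region in more libraries more often held that start (46.6% of regions in 1 library, 97.7% of those in 10). Windows of starts inside the region reached 0.6 in 17.3% of cases and those beside it in 6.25%. Among the 746 regions that held a start the shares were 8.98%, 9.03%, 24.3% and 44.7% in the same order. For comparison, 4.40% of 5868 remote lncRNA genes without a peak within 1 kb reached 0.6, and 71.2% of 11433 coding genes with one. The TATA-box letters TATAAA, on either strand, stood in 13.4% of the lncRNA promoter windows, 16.0% of the lncRNA genes without a peak and 7.01% of the coding genes with one. CCAAT, on either strand, stood in 36.0%, 42.1% and 38.8% of the same sets.

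**Figure D3:**
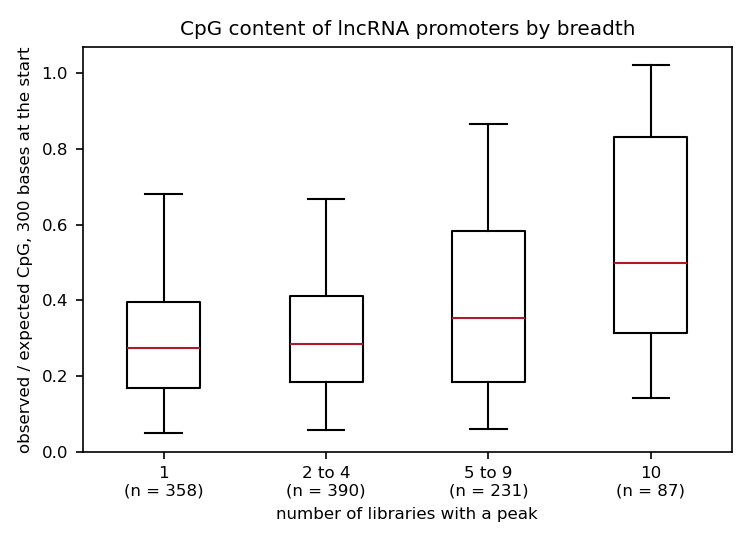
Observed over expected CpG ratio (y axis) of the 300 bases at the start of lncRNA promoters, by the number of libraries with a peak (x axis, with the number of regions). Red lines are medians, boxes quartiles and whiskers the percentiles from 5 to 95. The median is 0.27 for promoters in 1 library and 0.50 for those in 10, and the boxes overlap.

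Annotated microRNA hosts made up a larger share of the lncRNA genes with a region than of those without. Of the 1037 lncRNA genes with a region, 38 (3.66%) had an annotated microRNA within the gene on the same strand, against 50 of 5989 (0.835%) remote lncRNA genes without a region. Of the 38 hosts, 10 had a promoter region in all 10 libraries, against 93 of all 1037 genes (8.97%). A host with several regions, such as 3110039I08Rik with 4 or Mir99ahg with 3, was counted by the region called in most libraries. The gene type was taken from the annotation alone. Genes with names of protein-coding loci, such as Zswim6 and Trerf1, thus count here as lncRNA genes, and Zswim6 is among the 10 as the host of Gm22118. SnoRNA genes lay within 17 of the 1037 (1.64%) and 36 of the 5989 (0.601%). These are counts of annotated genes, with no test. The 2 groups were not matched for gene length or number of starts. A gene with more starts has more chances of a region, and a longer gene more room for a small RNA.

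The Mir99ahg gene had 3 of the lncRNA promoter regions along chromosome 16, all upstream of its microRNAs, and 1 more acetylated region within 1 kb of a start that lay within 5 kb of a coding start and is not counted here. The middle promoter (77327906–77333352) was the constant one, with peaks of 3523 and 2384 bp in the e11.5 mandibular and maxillary processes and 3613 and 4475 bp in the medial and lateral nasal plates. It measured 3978, 4643 and 4722 bp at e13.5 (mandibular, maxillary, nose), and 5235, 4240 and 3543 bp at e15.5 (labelled mandibular, maxillary, nose). Its percentile was 92.0 to 97.9. The first promoter (77235870–77239955), 5′ of it, had no peak in any e11.5 library nor in the e13.5 mandibular process. It then had peaks of 2603 and 2539 bp in the e13.5 maxillary process and nose and of 1987, 3387 and 3283 bp at e15.5. The third (77499310–77504853) was called in both nasal plates of e11.5 (3508 and 2264 bp), in the e13.5 maxillary process and nose (3098 and 2978 bp) and at e15.5 (4650, 5509 and 2257 bp), but not in the jaw processes of e11.5 nor the e13.5 mandibular process. At equal list sizes the middle promoter stayed in 10 libraries, the first was in 1 and the third in 6.

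The paralogous host on chromosome 9, 3110039I08Rik, had 4 promoters. The most 3′ of them (41577764–41601755) covered the microRNA gene Mir125b-1 with a peak in 10 of 10 libraries. The miR-100 sequence (41531437–41531458) lies upstream of this promoter, so a transcript from it would not include miR-100. The other promoters of the gene, each called in fewer libraries, lie upstream of miR-100. There the widths were 12449, 8739, 9870 and 10354 bp at e11.5 (mandibular, maxillary, medial nasal, lateral nasal), 14353, 12648 and 13076 bp at e13.5 (mandibular, maxillary, nose) and 14066, 13300 and 8598 bp at e15.5 (labelled mandibular, maxillary, nose). These were among the widest H3K27ac regions at any lncRNA, and their percentile never fell below 96.9. The second promoter (41373984–41380106) was called in 8 libraries at 3065 to 5671 bp, missing from the e11.5 maxillary process and the e15.5 library labelled nose. The third (41474023–41476652), shared with Gm49317, was called in 8 at 1647 to 2425 bp, missing from both jaw processes of e11.5. The first (41326035–41329327) was called in 4, none of them of e11.5. This promoter and the first of Mir99ahg were thus both without a peak in the 4 e11.5 libraries, and both dropped to 1 or 2 libraries at equal list sizes.

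**Figure D4:**
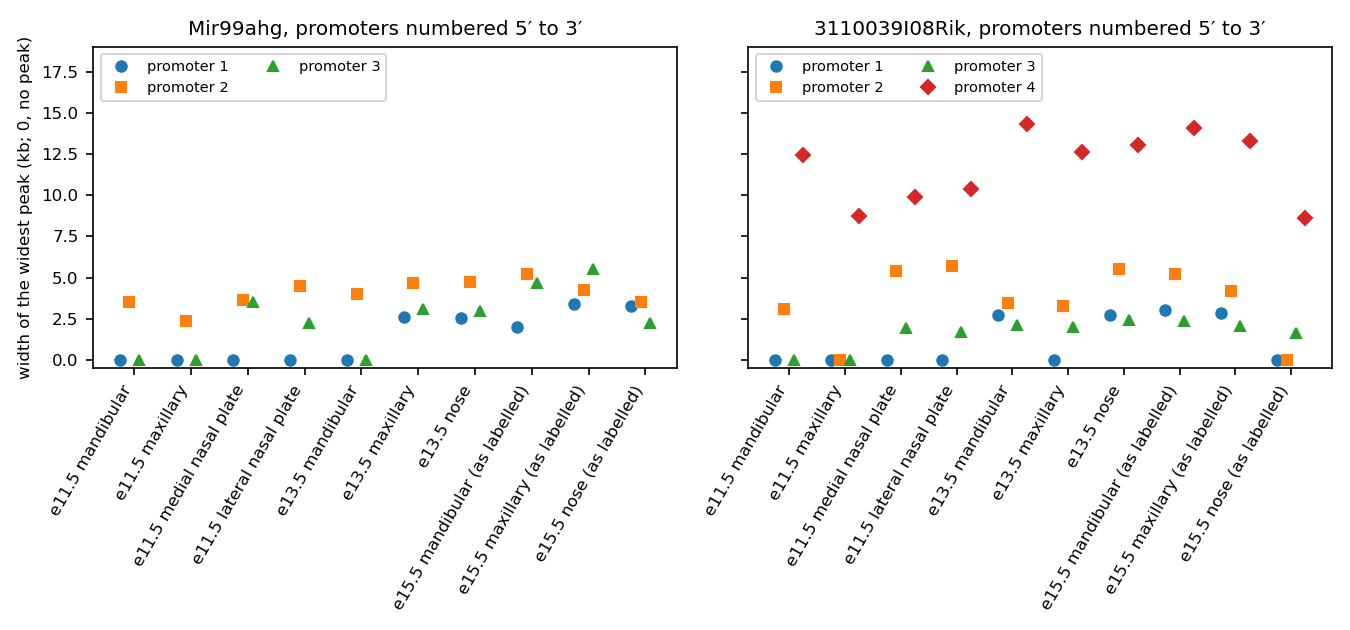
Width of the widest peak (y axis, kb; 0 where none was called) at the promoters of Mir99ahg (left) and 3110039I08Rik (right) in each of the 10 libraries (x axis), with promoters numbered 5′ to 3′. The constant promoters, number 2 of Mir99ahg and number 4 of 3110039I08Rik, have a peak in each library, and both promoters numbered 1 lie at 0 in the 4 e11.5 libraries.

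The same part of chromosome 9 held the densest run of constant lncRNA promoters. With gaps of up to 100 kb, 6 lncRNA promoter regions formed a cluster of 316125 bp (41577764–41893888), and 5 of them were called in all 10 libraries. Beside 3110039I08Rik these were the little-studied lncRNA genes Gm35835 (2297 to 3748 bp), AC160966.1 with Gm35940 (2291 to 6463 bp), AC160966.1 again (2070 to 5680 bp) and Gm40513 (2137 to 5597 bp). The only other member of the cluster, Gm48784, was called in 2.

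Dnm3os, transcribed from the opposite strand within Dnm3 and known as the precursor of miR-199a-2 and miR-214, carried the widest single peak, 19688 bp in the e11.5 medial nasal plate. It was present in 10 libraries, at 8650 bp or more, and the peak covered both microRNA genes in each. H19 measured 8169, 3128, 10308 and 9137 bp at e11.5, 11404, 9047 and 11328 bp at e13.5 and 9611, 8391 and 7526 bp at e15.5, in the order mandibular, maxillary and nasal within each stage, and its peak covered Mir675 in 9 libraries. The narrow one, in the e11.5 maxillary process, did not reach it. Although wide, the H19 peaks ranked between percentile 14.9 and 88.2.

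Another 5 hosts of conserved microRNAs, picked by name from the 38, are described next. Of these 5, 3 were called in all 10 libraries and 2 were not. Over all 38 hosts, 10 (26.3%) had a region in all 10 libraries and 9 (23.7%) had regions in 1 library only. Over all 1037 lncRNA genes with a region, the shares were 8.97% and 31.0%. Gm4258, host of miR-181a-1 and miR-181b-1, was called in 10 libraries at 3185 to 6429 bp, and 6720427I07Rik, host of let-7a-1, let-7d and let-7f-1, in 10 at 1381 to 2988 bp. Dleu2, host of miR-15a and miR-16-1, had 2 promoters that were each in 10 libraries. Lncppara, host of let-7b and let-7c-2, was absent from both e11.5 jaw processes and the lateral nasal plate, at 640 bp in the medial nasal plate, and present in all 6 later libraries at 2494 to 4759 bp. Mir17hg, the primary transcript of the miR-17 to miR-92 cluster, was in 8 at 705 to 3189 bp, missing from the mandibular process of e11.5 and e13.5, but in 3 at equal list sizes.

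The hosts of miR-205, miR-9 and miR-206 were called in 7 libraries or fewer. 4631405K08Rik, host of miR-205, a microRNA of epithelia, had no peak in the jaw processes of e11.5 nor in the e13.5 mandibular process. It measured 4790 and 4221 bp in the medial and lateral nasal plates, 2717 and 4301 bp in the e13.5 maxillary process and nose, and 8578, 19113 and 3951 bp at e15.5 in those labelled mandibular, maxillary and nose. The peak covered Mir205 in all 7 of these. The epithelial promoter Epcam was called in 6 of the same 7 libraries, all but the e13.5 maxillary process, and in no other. Trp63 was called in 2 of the 7, the e11.5 lateral nasal plate and the e15.5 library labelled maxillary, and Krt8 in 0. The part of epithelial cells in this result was not tested. The main promoter of C130071C03Rik, host of miR-9-2, a microRNA of neural tissue, was called in the 3 nasal libraries of e11.5 and e13.5 (2119, 2603 and 4748 bp) and nowhere else, and lesser regions of the gene in the e13.5 nose (1294 bp) and the medial nasal plate (288 bp). Gm3764, host of miR-9-1, had 1 peak of 307 bp, in the medial nasal plate. Gm28653, host of the muscle microRNAs miR-206 and miR-133b, had a peak in 1 library, the e15.5 library labelled maxillary (3500 bp). At equal list sizes C130071C03Rik, Gm3764 and Gm28653 had no peak in any library, and 4631405K08Rik had one in 3.

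**Figure D5:**
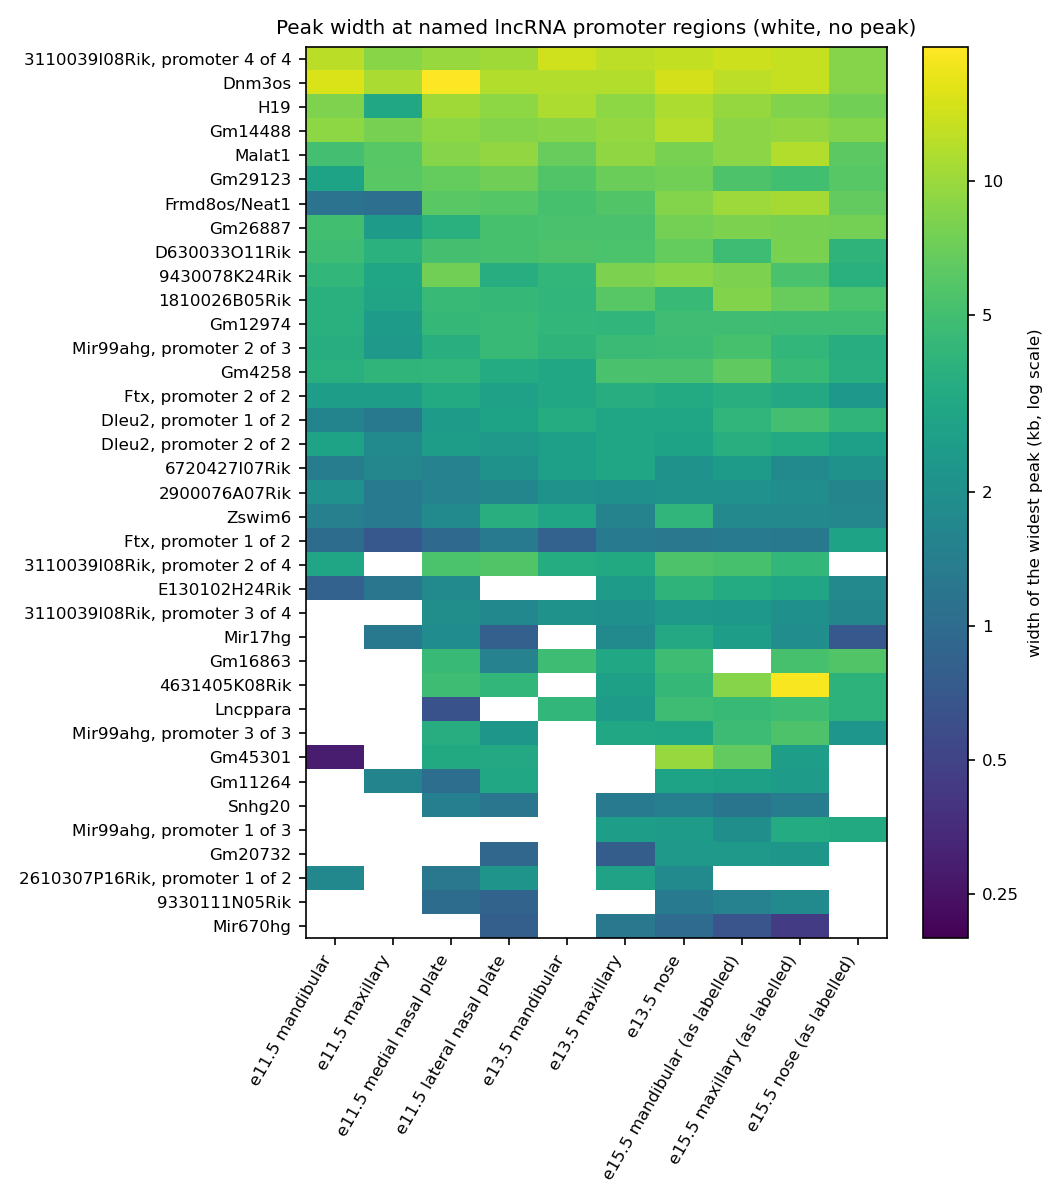
Width of the widest peak (colour, kb, log scale; white where none was called) at a selection of lncRNA promoter regions (rows; microRNA hosts, the widest and the widest constant regions, where called in 5 or more libraries, with promoters of one gene numbered 5′ to 3′) in the 10 libraries (columns). Regions of chromosome 18, Carmn among them, are not shown. The rows at the top are filled in all 10 columns, and white cells gather in the e11.5 jaw, e13.5 mandibular and e15.5 nose-labelled columns, which hold the shorter peak lists.

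Among the nuclear-retained lncRNAs, the 2 listed, Malat1 and Neat1, both had a promoter region in all 10 libraries. Over all 1037 lncRNA genes with a region the share was 8.97%. Malat1, abundant in nuclear speckles, measured 5054, 5996, 8660 and 9384 bp at e11.5, 6845, 9322 and 7863 bp at e13.5 and 9018, 11823 and 6281 bp at e15.5, in the same order. The region at Neat1, the scaffold of paraspeckles, shares its bases with the antisense gene Frmd8os, and measured 1162 and 1082 bp in the e11.5 jaw processes against 6099 and 5964 bp in the nasal plates. It then measured 5243, 5754 and 8502 bp at e13.5 and 10191, 10776 and 6548 bp at e15.5, so that the e11.5 and e15.5 ranges did not overlap.

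Of the 8 imprinted lncRNA genes of the list that have one of the 3 gene types, 4 had a region, and 1 of them (H19) had it in all 10 libraries. A start more than 5 kb from coding starts was annotated for 7 of the 8. Over all lncRNA genes with such a start, 1030 of 7019 (14.7%) had a region. Of the 1037 genes with a region, 93 (8.97%) had one in all 10 libraries. Airn, which silences Igf2r in cis, was called in 7 libraries at 517 to 5094 bp. Kcnq1ot1, which silences genes of the Kcnq1 domain, was called in 7 at 1151 to 6383 bp and in neither jaw process of e11.5 nor the e13.5 mandibular process. Meg3, maternally expressed from the Dlk1 to Dio3 domain, was called in 4: 316 bp in the medial nasal plate, 1569 bp in the e13.5 nose, and 2145 and 3050 bp in the e15.5 libraries labelled mandibular and maxillary. The genes Mirg, Rian and Snhg14 had no region within 1 kb of a start, and Nespas had regions that lay within 5 kb of a coding start.

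In the X-inactivation centre, 3 of the 4 listed genes had a region, against 14.7% of lncRNA genes with a start more than 5 kb from coding starts. Jpx and Ftx, both known as activators of Xist, were constant, against 8.97% of the 1037 genes with a region. Jpx was called in 10 libraries at 1140 to 3369 bp and Ftx at 2 promoters in 10 libraries each. Xist itself was called in the 4 e11.5 libraries (1631, 1373, 2903 and 1889 bp), in the e13.5 maxillary process and nose (2054 and 1994 bp) and in no e15.5 library. The sex of the embryos is not given in the sources used here, and its part in this result was not tested. Tsix had no region. A region at Firre, another X-linked lncRNA, was called in 5 libraries and a second in 2.

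Of the 15 snoRNA hosts of the list with one of the 3 gene types, 6 had a lncRNA promoter region: Snhg8, Snhg15 and Snhg17 in 10 libraries, Snhg5 and Snhg6 in 9 and Snhg20 in 6. The other 9, Gas5 and Snhg1 among them, each had a region that lay within 5 kb of a coding start and is not counted here. Only 7 of the 15 have a start more than 5 kb from coding starts. Of all lncRNA genes with such a start, 14.7% had a region. Snhg8 lay between percentile 85.3 and 99.7, at 1033 to 4212 bp. Dancr, a lncRNA known from studies of progenitor cells, was called in 9 libraries at 1195 to 4566 bp.

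Of the 34 named regulatory lncRNA genes, 9 had a region, and 3 of them (Carmn, Dleu2 and Lockd) had one in all 10 libraries. Of all lncRNA genes with a start more than 5 kb from coding starts 14.7% had a region, and only 20 of the 34 have such a start. Another 12 had a region that lay within 5 kb of a coding start and is not counted here, among them Crnde, Zeb2os and Zfas1 in 10 libraries, Tug1 in 9 and Emx2os in 8, so that 13 had no region near a start. Lockd, next to the cell-cycle inhibitor gene Cdkn1b, measured 2444 to 4515 bp. Sox2ot, which spans Sox2, was called at 1 promoter in the medial nasal plate (413 bp) and at another in the medial nasal plate, the e13.5 nose and the e15.5 library labelled mandibular (1539, 3013 and 4035 bp). Pvt1, next to Myc, was called in the e13.5 nose alone (927 bp), and Lncpint in 3 libraries.

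Some lncRNA promoters lay nearest to craniofacial transcription factor genes. The nearest coding start belonged to 1 of 121 listed factors for 37 of the 1066 regions (3.47%), and for 826 of the 24516 other remote regions (3.37%). None of these 37 was called in all 10 libraries, against 8.16% of the 1066 regions, and 15 were called in 1, against 33.6%. These small counts were not tested. Among the 37, 5033428I22Rik, 18685 bp from Hand2, was called in the e11.5 mandibular process (2596 bp) and the e15.5 library labelled maxillary (10666 bp). In the same e15.5 library the Hand2 promoter was called. Gm20052, nearest to Msx1, was called in both nasal plates of e11.5 only (2209 and 1655 bp). Gm9979, nearest to Tfap2a, was called in the 3 nasal libraries of e11.5 and e13.5 and the e15.5 library labelled mandibular (3602, 2810, 3353 and 2383 bp). Runx2os2, within Runx2, was called in the medial nasal plate (803 bp) and the e13.5 nose (2200 bp).

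Few lncRNA promoters were gained or lost with stage. A peak in all 3 e15.5 libraries and no e11.5 library was found at 11 regions (1.03%), against 0.638% of all merged regions. Of the 10 named by their widest peak, 4 were called at e13.5 in the nose alone: Gm31946 (nearest to Nr2f1, 2347 bp there and 2553, 2434 and 2659 bp at e15.5), Gm4876 (2294 bp, then 3821, 3035 and 2483 bp), 8430426J06Rik and Gm47922. BC043934 and the first promoter of Mir99ahg were also called in the e13.5 maxillary process. Gm47851 was called in the e13.5 mandibular process and nose, and the region of 2310001H17Rik and Gm47861, Gm29326 and Gm48053 in no e13.5 library. Without the short e15.5 list labelled nose the count was 68 (6.46%), and the share of all regions rose with it to 4.78%.

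The opposite pattern, a peak in all 4 e11.5 libraries and no e15.5 library, was found at 5 regions (0.469%), against 0.463% of all regions. Beside Xist these were D030045P18Rik, Gm42761, AC127690.2 and Gm36325. Gm36325, nearest to Irx3, measured 1920, 2499, 2819 and 2638 bp at e11.5 and 1499 bp in the e13.5 nose. AC127690.2, nearest to Vegfa, was still called in all 3 e13.5 libraries (1385, 2030 and 2128 bp). The number rose to 11 (1.04%, all regions 0.993%) without the e11.5 mandibular process and to 21 (1.98%, all regions 1.33%) without the e11.5 maxillary process. It was 10 (0.98%, all regions 0.868%) and 9 (0.885%, all regions 0.635%) without the e15.5 libraries labelled mandibular and maxillary, and 14 (3.46%, all regions 2.64%) at equal list sizes.

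Among the 87 constant promoters, peaks were wider at e15.5 than at e11.5 in some. At 10 of the 87 the peaks of all 3 e15.5 libraries were wider than those of all 4 e11.5 libraries, against 14.7% of the 2831 regions present in all libraries, and at 0 they were narrower, against 1.45%. The median width over those 2831 regions itself ran from 1749 to 2679 bp between libraries. Divided by that median, 5 of the 87 (5.75%, background 6.64%) were wider and 10 (background 8.69%) narrower at e15.5. The 5 were 4930578M01Rik (2.70 times by the ratio of mean relative widths), Frmd8os and Neat1 (2.28 times), a promoter of Dleu2 (1.85 times), Gm26887 (1.64 times) and 1810026B05Rik (1.505 times). Dnm3os was among the 10, at 0.68 times.

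Across stages the share of all called regions that were lncRNA promoters showed no slope past the threshold. It was 3.19% and 2.70% in the e11.5 mandibular and maxillary processes and 2.77% and 2.78% in the medial and lateral nasal plates. It was 2.97%, 2.46% and 2.79% at e13.5 (mandibular, maxillary, nose), and 2.75%, 3.04% and 2.43% at e15.5 (labelled mandibular, maxillary, nose). The ranges of the stages overlapped, and the slope was −0.03 percentage points per day (exact permutation test over the 10 libraries, two-sided, p = 0.5005, adjusted 0.667). The log2 width ratio to coding promoters changed by −0.01 per day (exact permutation test, p = 0.6002, adjusted 0.686). With tissue as a block the slopes were −0.04 and −0.01 (exact permutation within tissues, p = 0.396 and 0.444).

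Between nose and jaw, at e11.5 and e13.5, the share was 2.78% ± 0.01 (SD, n = 3) in the nasal and 2.83% ± 0.32 (SD, n = 4) in the jaw libraries, a difference of −0.05 percentage points (exact permutation test over 35 splits, p = 0.80, adjusted 0.80; the smallest p this design allows is 0.0286). By presence, 96 regions (9.01%, background 6.01%) had a peak in all 3 nasal libraries and none of the 4 jaw libraries, and 0 (background 0%) the reverse. The nasal lists held 20492 to 25941 peaks and the jaw lists 6571 to 10753. With the 6571 peaks of highest significance taken from each library, 0 regions were nasal only (background 0.327%) and 1 was jaw only (background 0.0589%). Leaving out the medial or the lateral nasal plate of e11.5 raised the 96 to 148 (14.6% and 15%), and the share of all regions to 10.3% and 10.8%.

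The widest of the 96 were Gm29590 with Gm47734, Rncr4, Gm12866, Gm13856, Gm48397, 1700001D01Rik, C130071C03Rik with Gm26803, Gm12729, Gm17546 and Gm11515. Rncr4, next to the sensory microRNA cluster of miR-183, measured 5805, 4414 and 3670 bp in the medial nasal plate, lateral nasal plate and e13.5 nose, and 2835 and 860 bp in the e15.5 libraries labelled mandibular and maxillary. Gm12729 measured 4147, 2973 and 3551 bp and was called in no e15.5 library.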

How the data were processed

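H3K27ac ChIP-seq peak lists of 10 mouse embryonic face libraries were analysed, 1 per tissue and stage, grouped by their labels; the 10 input samples were not analysed here. Per the submitters' processing notes, the authors used BWA 0.7.7, SAMtools 0.1.19 and MACS2 2.2.4 with mm10. The deposited broad peak files give, for each peak, a score, the fold enrichment, the −log10 p-value and the −log10 q-value, with a smallest −log10 q of 1.3. The deposited peak scores and −log10 p-values were not used. Peaks were called in each library separately, so their number depends on depth, which is unknown, and a fold or q is comparable only within a library.

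Of 144896 peaks, the 144852 on chromosomes 1 to 19, X and Y were merged where they overlapped or touched (42346 regions, as with bedtools 2.31.1). Starts came from GENCODE vM21 transcripts, and sequences from GRCm38.p6 and RefSeq. All peaks lay within the chromosome lengths of that assembly. A library had a region when a peak overlapped it. Library values were compared by exact permutation, two-sided, with Benjamini-Hochberg adjustment over 8 tests (Python 3.11.15, numpy 2.4.6, pandas 2.3.3). The procedures were tested on simulated data. The members and gene lists were chosen with earlier results of these data known. Named genes are the members on the lists, hosts of small RNAs, the 10 widest, the 12 widest in all libraries and up to 10 of each presence pattern; genes of small counts and the densest cluster were named after their values were seen. The alternatives were another q threshold, equal list sizes, other windows, distances and transcript sets, peaks covering at least 50% of the region, summed widths, rank by q, and each library left out in turn. The midpoint rule, the genes with 1 start the tissue block and the omission of the e15.5 libraries were chosen after seeing the data.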

Additional observations from a re-analysis of the deposited data

Results flagged for a closer look

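At e11.5 the share of called regions that were lncRNA promoters was 3.19% in the mandibular process, apart from the other 3 libraries at 2.70% to 2.78%: the gap to the nearest was 0.835 of the whole range, above Dixon's critical value of 0.829 for 4 samples. It was the 1 such value among 30 groups of 4 that were tried, and chance gives about 1 in 20.

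From e11.5 to e13.5 that share fell in both jaw processes (mean change −0.23 percentage points) and rose slightly from either nasal plate to the nose (0.00 and 0.02), so the mean changes of nose and jaw differed by 0.24 points. The width at Malat1 moved the opposite way: it rose in both jaw processes (mean 2558.5 bp) and was lower in the nose than in the nasal plates (changes of −1521 and −797 bp), so that the mean changes differed by −3717.5 bp. Neither difference was tested, because each rests on 1 library per tissue and the same e13.5 nose library stands on both nasal sides.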

How the results depend on the processing

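Presence, width and rank against other remote regions and the downstream reach kept their direction and their side of the threshold under all alternatives and with each library left out, although width against other remote regions fell from a log2 ratio of 0.55 to 0.28 at −log10 q of at least 2 and was larger in 8 of 10 libraries at equal list sizes. Width against coding promoters did not. On the log2 scale it was 0.205 at −log10 q of at least 2 and 0.225 at equal list sizes. It was 0.0455 with a 2.5 kb window (no longer past the threshold) and 0.11 without the e15.5 libraries (adjusted p = 0.05 by exact permutation, at the threshold). With the midpoint rule, applied to lncRNA starts but not to coding starts, it was −0.0525.

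Results that missed the threshold changed sign in places. The nasal minus jaw share was 0.0228 percentage points at equal list sizes, 0.333 with a 2.5 kb window, 0.0155 with starts of protein_coding transcripts only, 0.0158 with 50% coverage and 0.00273 with the midpoint rule, and −0.176 to 0.0585 with a library left out. The stage slope of relative width was 0.00476 per day at equal list sizes and 0.0134 with 50% coverage, and −0.0160 to 0.00430 with a library left out. The cause was not tested.

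Counts moved more. In what follows the share of lncRNA promoters is set against that of all regions. Equal list sizes left 405 lncRNA promoter regions, with 14 lost (3.46% against 2.64%), 0 nasal only (0% against 0.327%) and 1 jaw only (0.247% against 0.0589%). At −log10 q of at least 2, 56 were in all libraries (7.77% against 6.36%), 4 gained (0.555% against 0.346%) and 3 lost (0.416% against 0.513%). With 50% coverage, 26 were in all libraries (2.44% against 2.42%), and with the midpoint rule 2 were lost (0.253% against 0.463%). With a library left out, 11 to 68 were gained (at 68, 6.46% against 4.78%), 5 to 21 lost (at 21, 1.98% against 1.33%) and 96 to 148 nasal only (at 148, 14.6% against 10.3% and 15% against 10.8%). Of 87 named regions, the number of libraries stayed within 1.5 times for 60 at the stricter q, 32 at equal list sizes and 72 with 50% coverage. With tissue as a block (mandibular, maxillary, and nasal plates with nose), chosen after seeing the data, the stage slopes stayed negative and short of the threshold with all libraries (−0.04 and −0.01) and with e11.5 and e13.5 only (−0.07 and −0.02, over 12 arrangements, too few to pass it). The block follows the e15.5 labels. No paired analysis by replicate number was possible because the labels give none. The unknown depth limits every absence reported.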

Other observations

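Apart from the chromosome 9 cluster, 6 clusters of 5 or more regions with gaps of up to 100 kb were found, and none held a region present in all 10 libraries. The largest, 7 regions in 67127 bp on chromosome 5 (148949110–149016236), covers 8430423G03Rik, Gm15410, 1810059H22Rik, Gm15408 and Gm15411. Chromosome X held 25 of the 1066 regions and chromosome Y 0.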
